A study of Mus musculus with 17 samples.

Results

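Wnt proteins are secreted signals, and the genes described here are 9 Wnt ligands of the mouse embryonic kidney (Wnt2b, Wnt4, Wnt5a, Wnt5b, Wnt6, Wnt7b, Wnt9b, Wnt10a and Wnt11) together with Wls, the carrier that brings Wnt proteins to the cell surface. They were taken by symbol from an expression table of 24432 gene IDs, in which each of the 10 symbols stood on 1 row. RNA was sequenced from whole dissected kidneys at embryonic day 12.5, on a mixed strain background. In 5 libraries the kidneys were Ctnnb1-delta3 c/+;Foxd1, which carry 1 conditional allele of beta-catenin that loses exon 3 and is thereby stabilised under a Cre active in the stromal lineage (Foxd1-Cre below). In 3 libraries they were Ctnnb1-delta3 c/+;Six2, with the same allele under a Cre active in the nephron progenitor lineage (Six2-Cre below). The other 9 libraries were wild type, with no allele or Cre named. Foxd1-Cre kidneys were set against wild-type replicates 1 to 6 and Six2-Cre kidneys against wild-type replicates 7 to 9. Each Cre marks a lineage and not a purified population, so every value is that of the whole kidney, and fewer cells of a type cannot be told apart from less RNA per cell. The labels do not say whether a library held 1 embryo or several, and p-values measure the spread between these libraries.

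Each Wnt protein is given a lipid by the acyltransferase Porcn, handed to Wls, released, and bound by Frizzled receptors on nearby cells. In canonical signalling the receptor complex stops the breakdown of beta-catenin, which then enters the nucleus and activates target genes with TCF/LEF factors. The stabilised allele used here acts inside the cell, below the ligands and receptors. In the embryonic kidney the ligands are made by different tissues. The ureteric bud makes Wnt9b, which instructs the nephron progenitors around it, Wnt11 at its tips, and Wnt6 and Wnt7b. The progenitors answer Wnt9b by making Wnt4, which drives them to form epithelium, and stromal cells of the medulla make Wnt4 as well. Wnt5a, the best known noncanonical ligand, is made in mesenchyme.

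The libraries formed 2 sets that follow these pairings and that the labels do not name. The 11 libraries with Foxd1-Cre had 5312 to 5807 genes listed at 0 and steps between values equal to 28800000 to 37400000 reads, and the 6 with Six2-Cre had 7590 to 7891 genes at 0 and 5250000 to 5850000 reads. Levels are given as FPKM (fragments per kilobase of transcript, scaled to sequencing depth), so different genes of a library can be compared. For a transcript of 1 kilobase 1 read was worth 0.0268 to 0.0347 FPKM in the deeper set and 0.171 to 0.191 FPKM in the shallower set. Low values of the Six2-Cre comparison therefore rest on few reads. Values are per gene, so the loss of exon 3 cannot be seen in them. Axin2, a direct target of canonical signalling read as a check, rose by 2.63 ± 0.06 on the log2 scale in Foxd1-Cre and by 1.41 ± 0.09 in Six2-Cre kidneys.

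The genes lie on 8 chromosomes. In GRCm38, Wnt6 (chromosome 1, 74771892 to 74785322) and Wnt10a (chromosome 1, 74791516 to 74804179) are neighbours on the same strand. Wnt2b (104945272 to 104961921) and Wls (159839672 to 159938664) lie on chromosome 3. Wnt4 lies on chromosome 4 (137277489 to 137299726), Wnt5b on 6 (119432531 to 119544347), Wnt11 on 7 (98835112 to 98855195) and Wnt9b on 11 (103727364 to 103749821). Wnt5a lies on chromosome 14 (28504750 to 28527448) and Wnt7b on 15 (85535437 to 85582473). Wnt4, Wnt9b and Wnt10a overlap no other annotated gene. Wnt5a, Wnt5b, Wnt6, Wnt7b, Wnt11 and Wls overlap a gene on the opposite strand, and Wnt2b and Wls overlap a predicted gene on the same strand, so their values may share reads with it, since counting by strand is not stated.

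RefSeq promoter windows (GRCm38.p6) were held for 7 of the 10 genes. The 250 bases before the start are shown for Wnt11 and Wnt9b, 2 ligands of the bud whose ratio is given below. Both are written 5′ to 3′ on the gene's strand, and capitals mark a match to the TCF/LEF core. The Wnt11 window is chr7:98834862-98835111 on the plus strand and that of Wnt9b is chr11:103749822-103750071 on the minus strand.
Wnt11: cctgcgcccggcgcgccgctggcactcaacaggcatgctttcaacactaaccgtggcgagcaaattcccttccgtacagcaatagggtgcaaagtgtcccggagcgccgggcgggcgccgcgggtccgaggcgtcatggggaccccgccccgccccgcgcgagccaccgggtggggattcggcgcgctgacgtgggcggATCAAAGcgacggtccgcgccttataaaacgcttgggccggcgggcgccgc
Wnt9b: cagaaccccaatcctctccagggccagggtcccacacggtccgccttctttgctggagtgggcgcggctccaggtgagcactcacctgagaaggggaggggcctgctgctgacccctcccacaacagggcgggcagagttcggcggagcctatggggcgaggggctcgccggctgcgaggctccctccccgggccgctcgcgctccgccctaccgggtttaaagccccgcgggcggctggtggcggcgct
The cores searched, on both strands, were CTTTGAT and its variants ending otherwise, which are the string CTTTGAA, the string CTTTGTA and the string CTTTGTT. They share their opening letters, and a match cannot overlap another on the same strand. The Wnt11 window holds ATCAAAG, the reverse complement of CTTTGAT, starting 51 bases before the gene's start, and none of these letter strings was in the Wnt9b window. Among the 10 windows of the members (3 starts of Wnt5b and 2 of Wnt11 included), 2 held a match, the other being CTTTGAT 71 bases before the innermost start of Wnt5b. Of all 32851 windows of this length 14.8% held any of the cores and 3.21% held CTTTGAT or its reverse complement. A match is a description of the letters and not a binding site.

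In wild-type kidneys the carrier Wls stood above every ligand, and Wnt4 and Wnt11 led the ligands. In wild-type replicates 1 to 6 Wls was at 33.0 ± 0.590 FPKM (SD, n = 6), with a range from 32.0 to 33.8. Wnt4 was at 22.2 ± 2.60 FPKM (SD, n = 6) and Wnt11 at 18.8 ± 1.97 FPKM (SD, n = 6). The ranges of Wnt4 and Wnt11 overlapped, although Wnt4 was the higher in 5 of 6 libraries. Together they made up 54.7% ± 3.03 (SD, n = 6) of the summed FPKM of the 19 Wnt genes. Next came Wnt5b at 8.74 ± 0.759 FPKM, Wnt9b at 6.83 ± 0.498, Wnt5a at 5.91 ± 0.662 and Wnt6 at 5.87 ± 1.01 FPKM (SD, n = 6 each). Wnt9b was above Wnt5a in all 6 libraries although their ranges overlapped, and the order of Wnt5a and Wnt6 was not resolved. Wnt7b (2.62 ± 0.380 FPKM), Wnt2b (0.527 ± 0.131) and Wnt10a (0.145 ± 0.0541) closed the order (SD, n = 6 each) with no overlap between neighbours.

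Wild-type replicates 7 to 9 kept Wls (30.0 ± 2.70 FPKM, SD, n = 3), Wnt4 (18.9 ± 1.41) and Wnt11 (12.7 ± 2.44) at the head. There Wnt5a, at 8.78 ± 1.26 FPKM (SD, n = 3), stood above Wnt5b (6.44 ± 1.12) and Wnt9b (4.64 ± 0.615), so the place of Wnt5a in the order differed between the wild types of the sets. Wnt2b was at 0.186 ± 0.0980 FPKM (SD, n = 3), on about 1.7 to 5.1 reads per library. Of the 10 other Wnt genes, 3 passed the filter on low values (at least 1 FPKM in at least 3 of the 17 libraries), namely Wnt2, Wnt7a and Wnt8b.

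**Figure D1:**
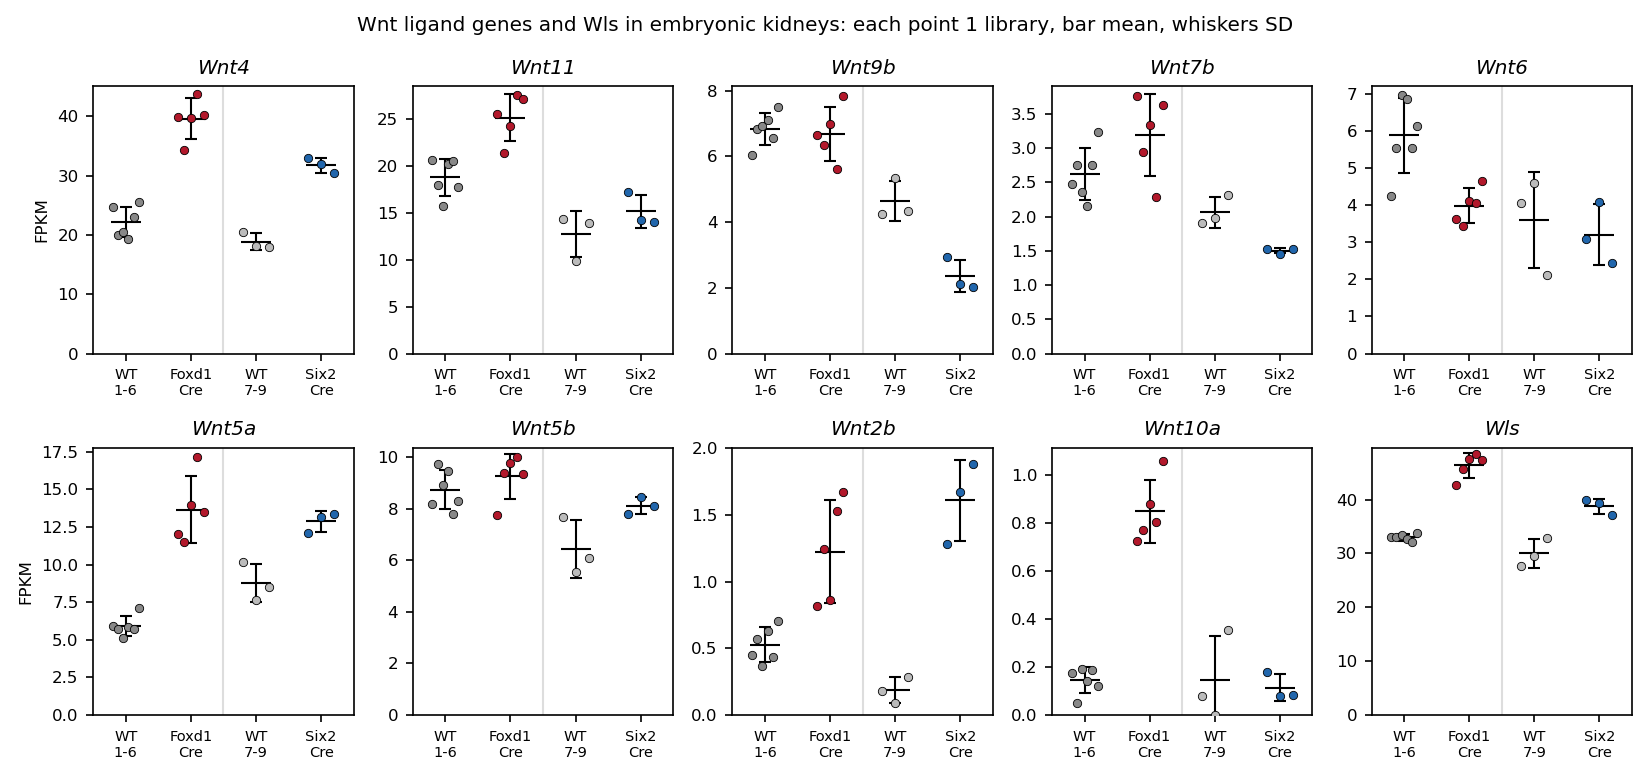
FPKM of each gene (vertical axis, from 0) in every library, by group: wild type 1 to 6, Foxd1-Cre, wild type 7 to 9 and Six2-Cre. Points are libraries, the bar is the mean and the whiskers the SD. Wnt4 separates both mutants from their wild types, Wnt10a stands high in the 5 Foxd1-Cre libraries, and Wnt9b is low in the 3 Six2-Cre libraries.

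With beta-catenin stabilised in the stroma, Wnt4, Wnt11, Wnt5a, Wnt2b and Wls rose and Wnt6 fell, while Wnt9b, Wnt7b and Wnt5b did not pass the test. Of the 10 genes 5 rose and 1 fell by limma (adjusted p under 0.05), where 8.45% of all 13996 genes tested rose and 4.82% fell, 13.3% in all. Wnt10a was too low for the filter and is described apart. Wnt2b passed the filter through mutant libraries alone, so its presence among the tested genes follows from its being high there.

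Wnt4, the progenitors' own signal for becoming epithelium, was at 40.0, 34.3, 39.7, 43.8 and 40.3 FPKM in Foxd1-Cre replicates 1 to 5. In their wild types it ran from 19.3 through a median of 21.8 to 25.5. Every mutant library stood above every wild type, and 10.7% of all genes tested had groups without overlap in this comparison. The means were 39.6 ± 3.40 FPKM (SD, n = 5) and 22.2 ± 2.60 FPKM (SD, n = 6), and the change on the log2(FPKM + 1) scale was 0.81 ± 0.08 (limma's standard error, as for every log2 change below; adjusted p = 3.2e-05). Markers of the cells known to make Wnt4 moved in both directions. Of 8 committed nephron markers 4 fell and 1 rose in Foxd1-Cre kidneys, with summed FPKM of 161 to 180 against 177 to 244, and of 8 nephron progenitor markers 5 fell. Of 8 medullary and ureteric stroma markers 5 rose and 2 fell (median 0.99). Their summed FPKM, at 516 to 593 against 575 to 678, was mostly Cdkn1c, which fell (420 against 576 FPKM). The sum therefore hardly reflects the other markers of that list. The part of all these markers in the change of Wnt4 was not tested.

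The ligands of the bud did not move as a block. Wnt11, made at the bud tips and needed for full branching, was at 25.6, 21.4, 24.2, 27.5 and 27.1 FPKM in the mutants. Its wild types ran from 15.7 through 19.1 to 20.6. The groups did not overlap, and its rise was 0.40 ± 0.08 on the log2 scale (adjusted p = 0.0059). Wnt6, found along the bud epithelium, was at 3.63, 3.44, 4.10, 4.04 and 4.65 FPKM against wild types from 4.25 through 5.83 to 6.96. Foxd1-Cre replicate 5 lay above the lowest wild type, so the groups overlapped. Wnt6 fell by 0.46 ± 0.11 on the log2 scale (adjusted p = 0.0133). Wnt9b averaged 6.69 ± 0.825 FPKM (SD, n = 5) in mutants and 6.83 ± 0.498 FPKM (SD, n = 6) in wild types, and its change was -0.03 ± 0.07 (adjusted p = 0.833). Wnt7b, which patterns the future medulla from the stalk, averaged 3.19 ± 0.596 FPKM (SD, n = 5) in mutants and 2.62 ± 0.380 FPKM (SD, n = 6) in wild types, and its change was 0.21 ± 0.10 (adjusted p = 0.248). Of 11 tip and stalk markers of the bud 1 rose, 1 fell and 9 did not pass, with sums of 244 to 310 FPKM in Foxd1-Cre kidneys and 248 to 292 FPKM in wild types. Of 8 tip markers 2 fell, Etv4 and Sox8, and none rose. The ratio of Wnt11 to Wnt9b within a library was 3.37 to 4.91 in Foxd1-Cre kidneys and 2.27 to 3.41 in their wild types.

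Wnt5a, the noncanonical ligand of the mesenchyme, had the largest log2 change among the 9 genes in the fit. It was at 12.1, 11.5, 13.97, 17.2 and 13.5 FPKM in the mutants and ran from 5.13 through 5.79 to 7.14 in the wild types. The groups were far apart, and Wnt5a rose by 1.08 ± 0.10 (adjusted p = 1.3e-05), a ratio of means of 2.31. Among stromal markers of the same kidneys, 6 of 7 cortical ones fell and none rose, with sums of 138 to 150 FPKM against 407 to 441. The cortical stroma gene Foxd1 was at 19.9 against 102 FPKM, and 5 of the 8 medullary and ureteric markers rose. Their part in the change of Wnt5a was not tested. Its close relative Wnt5b averaged 9.26 ± 0.878 FPKM (SD, n = 5) in mutants and 8.74 ± 0.759 FPKM (SD, n = 6) in wild types, and its change of 0.07 ± 0.07 did not pass (adjusted p = 0.565). In the mutants Wnt5a stood above Wnt5b in all 5 libraries with no overlap, whereas in wild types 1 to 6 Wnt5b stood above Wnt5a with no overlap.

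Wnt2b, a canonical ligand, was at 0.813, 1.24, 0.858, 1.53 and 1.67 FPKM in the mutants. The wild types ran from 0.367 through 0.510 to 0.707, all below every mutant. Wnt2b rose by 0.53 ± 0.11 (adjusted p = 0.0076), and the ratio of mean FPKM, which the added 1 FPKM of the log scale does not shrink, was 2.32. Wls was at 42.7, 45.7, 47.5, 48.4 and 47.5 FPKM against 32.0 through 33.0 to 33.8. It varied least of the 10 genes in wild types 1 to 6, with a coefficient of variation of 1.79%. Wls rose by 0.48 ± 0.03 (adjusted p = 1.6e-06). Leaving out any 1 of the 11 libraries ended none of these 6 calls.

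Wnt10a, the neighbour of Wnt6 and best known from skin and teeth, was at 0.727, 0.770, 0.882, 0.807 and 1.06 FPKM in Foxd1-Cre kidneys, on about 57.3 to 76.6 reads per library. The wild types ran from 0.0490 through 0.158 to 0.193 FPKM, on about 3.8 to 16.6 reads. Every mutant was above every wild type, and the ratio of means was 5.87. In a fit with no filter on low values Wnt10a rose by 0.69 ± 0.05 (adjusted p = 3.9e-06). Its neighbour Wnt6 fell in the same kidneys. Leaving out each library in turn from that fit, an alternative chosen after the data were seen, gave changes from 0.65 to 0.71. Among markers of cells outside the kidney proper, summed gonad and adrenal markers were at 8.59 to 20.4 FPKM in Foxd1-Cre kidneys against 1.81 to 3.54 in their wild types. Of the 4, Amhr2 rose (14.2 against 0.983 FPKM) and Star did not pass (1.494 against 1.498 FPKM). Nr5a1 (0.115 against 0.105 FPKM) and Cyp11a1 (0.111 against 0.113 FPKM) were too low for the filter. The higher sum was therefore mostly that of Amhr2, and the other markers of that list hardly differed. Mesothelium markers summed to 2.33 to 5.62 FPKM against 0.613 to 2.97, and their part in the change of Wnt10a was not tested.

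With beta-catenin stabilised in nephron progenitors, Wnt4, Wnt5a, Wnt2b and Wls rose, Wnt9b fell, and Wnt11, Wnt7b, Wnt6 and Wnt5b did not pass the test. Thus 4 of the 10 genes rose and 1 fell, where 7.93% of 13828 genes tested rose and 5.84% fell, 13.8% in all. The calls of Wnt4 and Wnt2b held without any 1 of the 6 libraries. Those of Wnt5a, Wls and Wnt9b ended without some single libraries, as given with each.

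Wnt4 was at 32.9, 32.0 and 30.4 FPKM in Six2-Cre replicates 1 to 3 and at 20.5, 18.2 and 17.9 FPKM in wild-type replicates 7 to 9. The groups did not overlap, as was true of 35.7% of all genes at this group size. Its rise was 0.72 ± 0.07 on the log2 scale (adjusted p = 0.0020). It rose while 7 of 8 nephron progenitor markers fell in these kidneys, Six2 itself from 80.8 to 18.0 FPKM, and while 2 of 8 committed nephron markers rose and 2 fell. Of the 8 medullary and ureteric stroma markers 4 rose and 2 fell (median 0.91), with sums of 504 to 534 FPKM against 480 to 489. Most of that sum was again Cdkn1c, which fell (367 against 423 FPKM). The part of all these markers in the change of Wnt4 was not tested. The effect on Wnt4 did not separate the mutants: the Foxd1-Cre change minus the Six2-Cre change was 0.09 ± 0.11 (adjusted p = 0.679).

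Wnt9b, the bud's instruction to the progenitors, was at 2.93, 2.10 and 2.04 FPKM in Six2-Cre kidneys. Its wild types were at 4.24, 5.35 and 4.33 FPKM, so every mutant lay below every wild type. Wnt9b fell by 0.75 ± 0.14 (adjusted p = 0.0207), a ratio of means of 0.508. Its adjusted p passed 0.05 when Six2-Cre replicate 2 (0.0702), Six2-Cre replicate 3 (0.0725), wild-type replicate 7 (0.0511) or wild-type replicate 8 (0.0654) was dropped, which ended the call. Wnt7b was at 1.53, 1.46 and 1.52 FPKM against 1.90, 1.97 and 2.32, again without overlap. Its change of -0.29 ± 0.11 did not pass (adjusted p = 0.130). Wnt6 was at 3.09, 4.07 and 2.45 FPKM against 4.05, 4.60 and 2.13, and its change of -0.10 ± 0.26 did not pass (adjusted p = 0.828). Wild-type replicate 9 alone was lower than every Six2-Cre library.

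Wnt11 was at 17.2, 14.3 and 14.1 FPKM against 14.4, 9.92 and 13.9 in these kidneys. Those groups overlapped, and the change of 0.25 ± 0.15 did not pass (adjusted p = 0.333). The ratio of Wnt11 to Wnt9b was 5.88 to 6.90 in the Six2-Cre libraries and 1.86 to 3.39 in their wild types. Markers of the bud were lower in the same libraries. Of 11 tip and stalk markers 7 fell and none rose, with sums of 185 to 202 FPKM against 266 to 285 FPKM, and of 8 tip markers 4 fell, among them the GDNF receptor genes Ret (-0.40 ± 0.09) and Gfra1 (-0.59 ± 0.05). Krt8 (-0.71 ± 0.06), Krt18 (-0.81 ± 0.08) and Cdh1 (-0.72 ± 0.13) changed by about as much as Wnt9b. Their part in the changes of Wnt9b and Wnt7b was not tested.

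**Figure D2:**
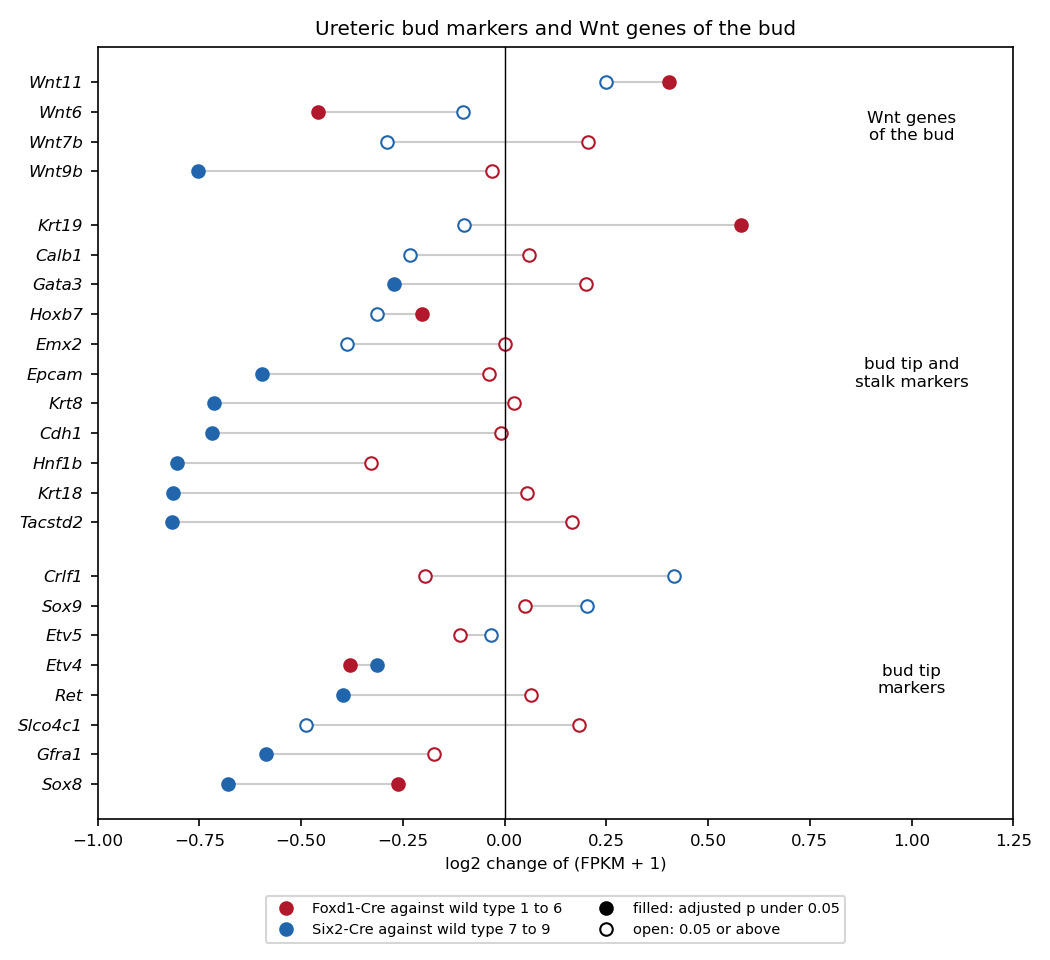
Log2 change of (FPKM + 1) (horizontal axis) for 8 bud tip markers, 11 bud tip and stalk markers and 4 Wnt genes of the bud, in Foxd1-Cre (red) and Six2-Cre (blue) kidneys against their wild types, filled where the adjusted p was under 0.05. In Six2-Cre kidneys Wnt9b (-0.75) lies among the markers that fell, and Wnt11 (0.25, not passing) to the right of 0.

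Wnt5a was at 12.1, 13.2 and 13.3 FPKM in Six2-Cre kidneys against 10.2, 7.67 and 8.52 FPKM. The groups did not overlap, and Wnt5a rose by 0.51 ± 0.11 (adjusted p = 0.0270). Of the 6 libraries, wild-type replicate 7 was the 1 that could be left out with the call kept. The adjusted p was 0.0611, 0.0881 and 0.0938 when Six2-Cre replicate 1, 2 or 3 was dropped, 0.0671 when wild-type replicate 8 was, and 0.0708 when wild-type replicate 9 was. Wnt5b was at 7.80, 8.45 and 8.13 FPKM against 7.69, 5.54 and 6.10, with no overlap but a narrow gap, and its change of 0.30 ± 0.12 did not pass (adjusted p = 0.147). It passed without wild-type replicate 7 (0.42, adjusted p = 0.0477). All 5 endothelial markers rose in these kidneys, with sums of 116 to 123 FPKM against 57.3 to 68.3, and their part in the values of the ligands was not tested.

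Wnt2b had the largest proportional rise of the 10 genes in Six2-Cre kidneys. It was at 1.28, 1.67 and 1.88 FPKM against 0.178, 0.0919 and 0.287 FPKM. Its change of 1.13 ± 0.15 passed (adjusted p = 0.0060). As in the Foxd1-Cre comparison, Wnt2b entered the fit through mutant libraries alone, so its presence among the genes tested is no separate evidence. The ratio of means was 8.67, but the wild types rest on about 10 reads in all, and the ratio of reads per depth was 8.98 with a 95% interval from 4.67 to 19.4, which covers counting error only. Wls was at 39.9, 39.3 and 37.2 FPKM against 27.7, 29.4 and 33.0, without overlap, and rose by 0.36 ± 0.07 (adjusted p = 0.0244). That call held without wild-type replicate 9 and ended without any other library (adjusted p from 0.0594 to 0.0802). Wnt10a was at 0.179, 0.0812 and 0.0821 FPKM against 0.0796, 0 and 0.354, which is 0 to 4.7 reads per library. With no filter its change of -0.03 ± 0.12 did not pass (adjusted p = 0.916). The ratio of reads per depth was 0.832, with a 95% counting interval from 0.201 to 3.27. In Foxd1-Cre kidneys that ratio was 5.78 (4.45 to 7.60). Both intervals cover counting error only and not the spread between libraries. The difference between the mutants' effects was not tested for Wnt10a. Changes inside the Six2-Cre interval, in either direction, are undetectable at this depth.

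Wnt7a, which is outside the 10 genes, was the 1 other ligand to pass in either comparison. It entered the fit through the 3 Six2-Cre libraries alone, the group in which it was high, so its call describes these libraries and its presence among the genes tested is no separate evidence. This canonical ligand is best known from limb, brain and the female reproductive tract. It was at 1.07, 2.31 and 2.41 FPKM in Six2-Cre kidneys and at 0.0508, 0.0525 and 0.0548 in their wild types, where each value is worth about 1 read. The rise was 1.44 ± 0.22 on the log2 scale (adjusted p = 0.0098). The ratio of reads per depth was 34.6, with a 95% counting interval from 11.5 to 170. In Foxd1-Cre kidneys Wnt7a stayed at or below 0.0739 FPKM, and its change of -0.01 ± 0.05 did not pass (adjusted p = 0.944). Summed nerve and glia markers were at 24.5 to 37.8 FPKM in Six2-Cre kidneys against 14.6 to 23.0 FPKM, and their part in the level of Wnt7a was not tested. In Foxd1-Cre kidneys those markers summed to 29.8 to 40.5 FPKM against 18.4 to 21.8 FPKM.

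**Figure D3:**
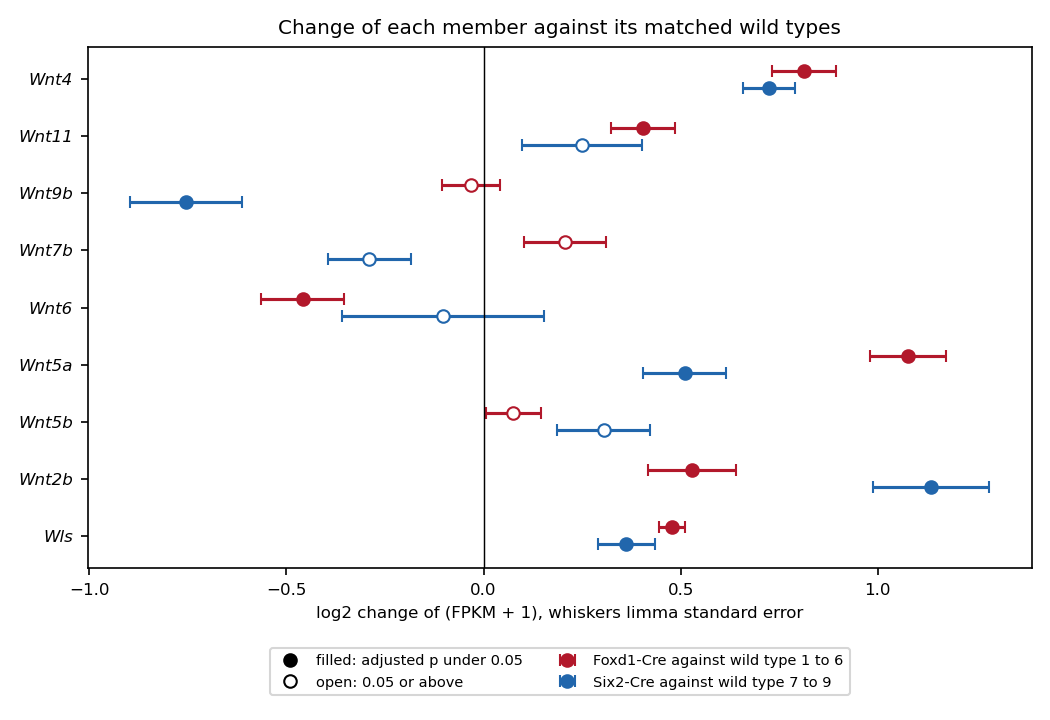
Log2 change of (FPKM + 1) (horizontal axis, whiskers limma's standard error) of the 9 genes that passed the filter, in Foxd1-Cre (red) and Six2-Cre (blue) kidneys, filled where the adjusted p was under 0.05. Wnt4, Wnt5a, Wnt2b and Wls lie to the right of 0 in both, and Wnt9b lies at -0.03 and -0.75.

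Wnt4, Wnt5a, Wnt2b and Wls rose in both mutants, against separate wild types, as did 2.71% of the 13810 genes tested in both. Among them Wnt2b was admitted to the fits through mutant libraries alone, in which it was high. The difference between the mutants' effects was tested gene by gene, and 5.76% of all genes passed with the higher change in Foxd1-Cre and 5.24% with the higher change in Six2-Cre kidneys. Of the 10 members Wnt9b, Wnt5a and Wnt7b passed it, all with the higher change in Foxd1-Cre kidneys. For Wnt9b the Foxd1-Cre change minus the Six2-Cre change was 0.72 ± 0.16 (adjusted p = 0.0176), since it fell in Six2-Cre kidneys alone. Dropping Six2-Cre replicate 2 (0.0715), Six2-Cre replicate 3 (0.0699) or wild-type replicate 8 (0.0632) ended that call. For Wnt5a the difference was 0.57 ± 0.14 (adjusted p = 0.0176), with the larger rise in Foxd1-Cre kidneys, and the call ended without Six2-Cre replicate 1 (0.0631). Mean Wnt5a was close in the mutants, at 13.6 FPKM in Foxd1-Cre and 12.9 FPKM in Six2-Cre kidneys. Their wild types lay further apart, at 5.91 and 8.78 FPKM. With all 9 wild types as controls the changes of Wnt5a were 0.91 and 0.84. The part of the wild types in this difference was not tested. For Wnt7b it was 0.50 ± 0.15 (adjusted p = 0.0412), although neither change passed alone, and the call held in 5 of 17 fits that each left out 1 library. The difference for Wnt2b was -0.61 ± 0.18 and did not pass (adjusted p = 0.0519). Those for Wnt11 (0.15 ± 0.17), Wls (0.12 ± 0.08), Wnt6 (-0.36 ± 0.28) and Wnt5b (-0.23 ± 0.14) did not pass either (adjusted p from 0.353 to 0.655).

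The mix of ligands in these libraries differed between mutants and their wild types, as a description. The summed FPKM of the 19 Wnt genes was 94.0 to 117 in Foxd1-Cre kidneys and 69.6 to 79.8 in their wild types, and 80.3 to 85.3 in Six2-Cre kidneys against 56.9 to 68.6. In both comparisons every mutant library stood above its wild types. Of all single genes tested, 10.7% in the Foxd1-Cre and 35.7% in the Six2-Cre comparison had groups without overlap, in either direction. Wnt4 made up 37.1% ± 1.10 (SD, n = 5) of that sum in Foxd1-Cre kidneys and 29.6% ± 2.59 (SD, n = 6) in wild types. In the other set its share was 38.0% ± 0.480 (SD, n = 3) and 30.1% ± 1.76 (SD, n = 3). The share of Wnt9b went from 9.15% ± 0.734 to 6.30% ± 0.857 with Foxd1-Cre, where its own level was near that of wild type, and from 7.48% ± 1.69 to 2.81% ± 0.536 with Six2-Cre. Shares add to a fixed total, so a share falls when other ligands rise, and no test was made on them.

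**Figure D4:**
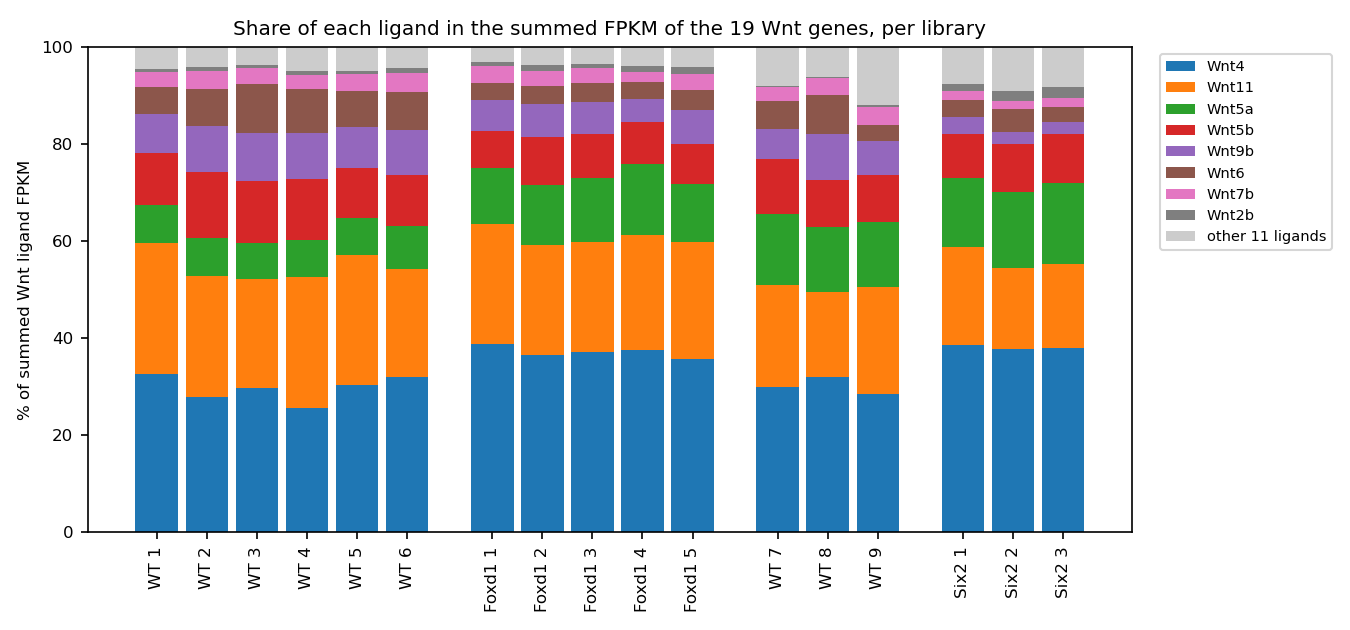
Share of each Wnt gene in the summed FPKM of the 19 Wnt genes (vertical axis, percent), 1 bar per library. Wnt4 fills 35.7% to 38.7% of each Foxd1-Cre bar and 37.7% to 38.6% of each Six2-Cre bar, above the 25.6% to 32.5% and 28.4% to 31.9% of their wild types.

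Partners of the ligands were read from lists chosen with earlier results of these data known. In the handling of Wnt proteins, Porcn was at 4.18 against 3.91 FPKM in Foxd1-Cre kidneys and at 2.35 against 1.85 FPKM in Six2-Cre kidneys, and did not pass in either. Of 10 genes for acylation, transport and removal of the lipid 2 rose in Foxd1-Cre kidneys (median 0.04, against -0.01 over all genes). They were Notum, which strips the lipid from Wnt proteins (5.45 ± 0.12), and Trabd2b, a peptidase that cleaves Wnt proteins (0.30 ± 0.07). In Six2-Cre kidneys Notum rose (4.19 ± 0.17) and the other 9 did not pass (median 0.09, against -0.01).

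Of 15 receptors and coreceptors tested, 5 rose in Foxd1-Cre and 6 in Six2-Cre kidneys, and none fell (medians 0.12 and 0.03, against -0.01 in each). Fzd10 rose most in both, by 3.14 ± 0.08 and 2.43 ± 0.17, and Fzd1 rose by 0.78 ± 0.09 and 0.56 ± 0.08. Ror1, of the family of coreceptors for Wnt5a, rose by 0.48 ± 0.10 and 0.55 ± 0.09. Ror2, the main one, changed by 0.26 ± 0.09 in Foxd1-Cre kidneys, which did not pass, and rose by 0.39 ± 0.06 in Six2-Cre kidneys. Of 11 extracellular binders and inhibitors 5 rose and 3 fell in Foxd1-Cre kidneys, and 4 rose and none fell in Six2-Cre kidneys (medians 0.09 and 0.42). Wif1, which binds Wnt proteins, rose in both (3.01 ± 0.10 and 2.48 ± 0.19), as did the decoy receptor Frzb (1.20 ± 0.09 and 0.95 ± 0.12). Dkk1, which blocks the Lrp coreceptors, fell by 0.45 ± 0.10 in Foxd1-Cre kidneys and rose by 2.54 ± 0.07 in Six2-Cre kidneys.

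Genes whose values ran most like each ligand over the 11 libraries with Foxd1-Cre were ranked by Pearson's r among 11047 protein-coding genes, as a description. Those libraries hold 2 genotypes, so a gene that differs between them scores high for that reason. The genes named are also the highest of 11047 over only 11 libraries, which by itself favours high values. How high r would run without any relation was not tested. Closest to Wnt4 were Gfra2 (r = 0.994), Enpp2 (0.988) and Gnai1 (0.987), and closest to Wnt5a were Serpine2 (0.995), Anxa7 (0.990) and Mllt3 (0.989). Within the groups, on deviations from the group means, Gfra2 had r = 0.94 with Wnt4 and Serpine2 had 0.95 with Wnt5a. Both genes were picked by r over these same libraries, so those values are no separate check. Over the 6 libraries with Six2-Cre, Enpp2 had r = 0.95 with Wnt4 and Gfra2 had -0.36, while Serpine2 had 0.84, Anxa7 0.58 and Mllt3 0.74 with Wnt5a. Closest to Wls were Pam, Ntng1 and Tnfrsf19 (0.99 each), with 0.84 to 0.95 over those 6 libraries. Wnt5b ran with Lima1 (0.94), Plvap (0.94) and Icam1 (0.94), of which Plvap and Icam1 are genes of endothelium. Wnt6 ran with Scx (0.97), Dlg3 (0.95) and Pik3r3 (0.91), and Wnt11 with Adcy3 (0.92), Plaur (0.92) and Pofut2 (0.92). Over the 6 libraries with Six2-Cre the values were 0.06, 0.16 and -0.21 for those of Wnt6, and 0.66, -0.44 and 0.37 for those of Wnt11. They were 0.75 to 0.81 for those of Wnt5b. For Wnt9b (Mllt1, Slc27a3 and Zfp622, 0.82 to 0.87) and Wnt7b (Pogz, Zxdc and Hpn, 0.84 to 0.86) the likeness was weaker, with 0.13 to 0.54 and 0.04 to 0.54 over those 6 libraries.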

How the data were processed

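Per the submitters' processing notes, bcl2fastq 2.17.1.14, Salmon and the build GRCm38 (mm10) were used. The authors deposited FPKM values for 24432 gene IDs and 17 libraries. How transcripts were summed to genes, with which annotation, and how libraries were scaled is not given in the sources used here. Symbols and places were taken from GENCODE release M21 (24189 IDs matched). Values were transformed as log2(FPKM + 1), which understates the change of low genes, and a gene entered the fit if 3 or more libraries reached 1 FPKM. Each mutant was fitted with its own wild types in limma 3.58.1 (R 4.3.3), two-sided, letting the variance follow the mean level, and p-values were adjusted by Benjamini and Hochberg's method across every gene in the fit. The script was tested on simulated data. The difference of effects added the squared standard errors of both fits, with Satterthwaite degrees of freedom. Reads behind a value were estimated from the commonest lowest step of genes with 1 transcript, scaled by the longest annotated transcript, and are approximate. Alternatives were another pseudocount, no filter, 2 rescalings, all 9 wild types, a constant prior variance, a replicate block and leaving out each library. Named genes were the 10 members, genes of the lists (among them the largest called change of each list of Wnt partners), and the 3 genes most like each member with a mean of at least 2 FPKM. Cell type markers covered ureteric bud, nephron progenitors, committed nephron, cortical and medullary stroma, mesothelium, endothelium, nerve and glia, macrophages, erythroid cells, and gonad and adrenal. The members and lists were chosen with earlier results of these data known.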

Additional observations from a re-analysis of the deposited data

Results flagged for a closer look

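The mutants' effects differed for Wnt5a (Foxd1-Cre change minus Six2-Cre change 0.57 on the log2 scale, adjusted p = 0.0176 by limma's fits), Wnt9b (0.72, adjusted p = 0.0176) and Wnt7b (0.50, adjusted p = 0.0412). For Wnt5a the mutants were close (13.6 and 12.9 FPKM) and their wild types further apart (5.91 and 8.78 FPKM). Among the genes outside the 10, Wnt7a differed the other way (-1.45, adjusted p = 0.0070), with all 3 Six2-Cre libraries above 1 FPKM and all 9 wild types and 5 Foxd1-Cre libraries below 0.1 FPKM. Wnt7a passed the filter on low values through those 3 Six2-Cre libraries alone, so it was admitted to the test by the group in which it is high. For 1 of 22 groups of 5 or 6 libraries examined for these genes, a library lay far from the rest: Foxd1-Cre replicate 1 was at 0.0739 FPKM of Wnt7a, about 7.6 reads, and its gap to the next library was 0.821 of the group's range. The cutoff used to flag a library is passed by chance in about 1 of 20 groups of normally spread values. Values worth a few reads need not be spread that way.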

How the results depend on the processing

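Of the 10 genes, the number called in Foxd1-Cre kidneys was 6 without each library in turn, and 5 to 7 under the other settings. With all 9 wild types as controls 1234 genes were called for Foxd1-Cre (1856 with its own wild types) and 6444 for Six2-Cre (1905). In that fit the change of Wnt6 in Foxd1-Cre kidneys no longer passed (-0.25, adjusted p = 0.391), Wnt9b there was at 0.13, and Wnt11 in Six2-Cre kidneys was at -0.11, neither passing, while Wnt7b in Six2-Cre kidneys passed (-0.45, adjusted p = 0.0088). Wnt5a rose there by 0.91 in Foxd1-Cre and by 0.84 in Six2-Cre kidneys. The cause of these shifts was not tested. Without a variance trend Wnt7b also passed (adjusted p = 0.0485). Leaving out 1 library each, Six2-Cre calls ran from 907 to 1467 genes and from 2 to 4 of the 10 members, with fewer samples in each such fit. Over those fits the Foxd1-Cre change of Wnt9b ran from -0.084 to 0.021, the Six2-Cre change of Wnt6 from -0.359 to 0.062 (0.031 without Six2-Cre replicate 3), and the Foxd1-Cre change of Wnt7a from -0.024 to 0.0015. The difference of effects for Wnt7b did not pass with a pseudocount of 0.1 (adjusted p = 0.0503), and that for Wnt2b passed in 1 joint fit (adjusted p = 0.0386). Rescaling each library to the same sum or upper quartile left the number of members called at 6 and 5, but rises made up 75.2% and 52.3% of all Foxd1-Cre calls, against 63.7%. With the replicate number 1 to 5 as a replicate block, 1426 genes and the same number of members (6) were called for Foxd1-Cre, and the change of Wnt7a was 0.0015. Deviations from the group means correlated at 0.022 to 0.099 between same-numbered libraries and at -0.14 to 0.11 between differently numbered ones. This check gave no clear sign of pairing, but correlations over all genes cannot exclude it. Six2-Cre libraries share no number with wild types 7 to 9. Mean levels over all 9 wild types moved by more than the SD of wild types 1 to 6 for Wnt5a (6.87 FPKM), Wnt5b (7.97), Wnt9b (6.10), Wnt11 (16.8) and Wls (32.0). The shallower set limits what Wnt10a, Wnt2b and Wnt7a can show there.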
